A study of Mus musculus with 2 samples.

Results

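Transcript levels of 10 amino acid transporter genes were followed across the fibroblast and pericyte classes of mouse lung on 2 diets. The genes were Slc7a10, which encodes Asc-1, Slc38a2, which encodes SNAT2, and Slc38a1, Slc38a4, Slc3a2, Slc7a5, Slc7a1, Slc7a2, Slc7a11 and Slc1a5. They were chosen by name, and all 10 were found among the 21014 genes of the deposited tables. The cells were lung fibroblastic stroma of C57Bl/6J mice that had been fed a high fat diet (HFD) or normal chow (NC) for 16 weeks, with 1 library for each diet. Transcriptomes were measured with the 10x Genomics single-cell 3′ v3 chemistry, which counts tags near the 3′ end of each transcript. The labels do not state the age or sex of the mice, or how many animals were pooled in a library. Cell classes were those of the finer deposited annotation: Asc1 fibroblasts, a subset split from them as SNAT2 fibroblasts, those named for Gas6 and for Pi16, a myofibroblast class and a pericyte class.

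Amino acid transporters of the SLC7 family fall into light chains, which reach the cell surface as a disulfide-linked pair with the heavy chain CD98 encoded by Slc3a2, and cationic amino acid transporters, which work without it. Asc-1, LAT1 (Slc7a5) and xCT (Slc7a11) are light chains: Asc-1 carries small neutral amino acids such as glycine, alanine, serine and D-serine, LAT1 carries large neutral ones, and xCT exchanges cystine for glutamate. The SLC38 transporters SNAT1, SNAT2 and SNAT4 move neutral amino acids with sodium, and ASCT2 (Slc1a5) exchanges neutral amino acids including glutamine. Slc38a2 and Slc7a11 are textbook targets of ATF4, the transcription factor of the amino acid response.

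The sequences before the start sites of Slc7a10, Slc38a2 and Slc7a1 are printed below. Slc7a10 and Slc38a2 give their protein names to 2 of the classes. Slc7a10 and Slc7a1 differed most between the diets among the 6 genes with enough counts for a ratio. Each is the stretch of 250 bases before a RefSeq transcript start in build GRCm38.p6, 5′ to 3′ on the strand of the gene. This build is older than the mm39 build named in the submitters' processing notes, so no position was carried over to the data. The Slc7a10 window lies at chr7:35186135-35186384 on the plus strand, the Slc38a2 window at chr15:96699729-96699978 on the minus strand, and the window of the more upstream of 2 Slc7a1 starts at chr5:148399905-148400154 on the minus strand. Capitals mark matches to TGACNNNGC, the core of the antioxidant response element, on either strand.
Slc7a10: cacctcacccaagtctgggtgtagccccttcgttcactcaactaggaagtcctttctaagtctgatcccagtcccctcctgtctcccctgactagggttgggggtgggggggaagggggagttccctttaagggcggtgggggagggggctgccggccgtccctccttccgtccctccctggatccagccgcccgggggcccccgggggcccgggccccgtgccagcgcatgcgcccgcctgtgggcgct
Slc38a2: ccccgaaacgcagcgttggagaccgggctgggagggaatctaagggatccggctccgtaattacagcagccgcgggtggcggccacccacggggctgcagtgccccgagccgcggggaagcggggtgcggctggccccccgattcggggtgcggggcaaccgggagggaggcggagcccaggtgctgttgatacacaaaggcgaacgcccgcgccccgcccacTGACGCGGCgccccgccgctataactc
Slc7a1: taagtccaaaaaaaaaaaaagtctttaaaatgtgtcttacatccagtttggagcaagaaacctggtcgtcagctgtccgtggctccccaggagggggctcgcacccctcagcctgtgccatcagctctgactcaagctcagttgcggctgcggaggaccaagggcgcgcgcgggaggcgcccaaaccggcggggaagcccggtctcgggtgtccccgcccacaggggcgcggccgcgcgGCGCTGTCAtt

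These windows were searched on both strands for 4 motifs, and RefSeq windows were found for 6 of the 10 genes (9 windows). TGACNNNGC matched once in the Slc38a2 window, as TGACGCGGC from base 27 to base 19 before the start, and once in the Slc7a1 window, as GCGCTGTCA on the other strand from base 11 to base 3 before the start. Of all 32851 windows of that length, 10.2% held this motif. The ATF4 composite element TGATGNAA, held by 3.45% of windows, matched in the window of Slc7a11, as TGATGCAA from base 66 to base 59 before the start and as TTGCATCA on the other strand from base 47 to base 40. The E-box CACGTG (6.02% of windows) and the palindromic glucocorticoid response element (0.00913%) had no match in these 9 windows, which says only that these letters are not there. The Slc7a10 and Slc38a2 windows had a GC content of 69.6% and 72% with 14 and 30 CpG dinucleotides, against medians of 52.4% and 6 over all windows. A match is a description of the letters and not evidence of a binding site.

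After cells with under 500 detected genes or over 10% mitochondrial counts were left out, 6089 HFD and 8140 NC cells remained, with medians of 10045 and 7524 counts and of 1429 and 1355 genes per cell. Counts recovered from the deposited values came in clumps and not as single molecules, so every interval below was computed on effective counts, which are the counts over a factor for this clumping (4.85 for the HFD and 3.98 for the NC library). Intervals are 95% intervals, exact Poisson for levels and ratios and exact Clopper-Pearson for shares of cells, and they cover counting error only. With 1 library per diet no replicate exists to test against, and a difference between diets cannot be told apart from a difference between libraries. A gene was called higher or lower by size where its ratio reached 1.5-fold up or down, among genes whose effective counts in the 2 libraries summed to 50 or more. Of all barcodes, 17 were in both libraries, 16 of them among the kept cells. In the pooled fibroblasts (the 5 fibroblast classes together, without pericytes), the defining markers Pecam1 of endothelium, Epcam and Sftpc of epithelium, Ptprc and Cd3e of immune cells and Msln of mesothelium were at 0 in both libraries. Other genes of these lists had counts: in HFD and NC, 5 endothelial markers summed to 5.23 and 6.59 CPM, mostly Tek (4.76 and 5.55 CPM), 5 epithelial markers to 1.59 and 2.09 CPM and 4 mesothelial markers to 2.58 and 3.33 CPM. The 6 immune markers summed to 36.3 and 53.0 CPM, with Plac8 at 18.6 and 35.9 CPM, Cd68 at 7.68 and 10.8 CPM and Lyz2 at 9.88 and 4.38 CPM. The part of these genes in the results was not tested. The class labelled pericytes went against its label in part: 5 pericyte markers summed to 356 CPM in HFD and 259 CPM in NC there, and 5 smooth muscle markers (Acta2, Myh11, Tagln, Cnn1 and Des) to 27187 and 26295 CPM, so "pericytes" below means the class so labelled. None of these 10 markers was at 0 in both libraries. The 5 pericyte markers also had counts in the myofibroblast class, where they summed to 261 CPM in HFD and 184 CPM in NC. Higd1b (69.0 and 26.2 CPM there, 3.86 and 2.04 CPM in pericytes), Trpc6 and Pdgfrb were higher in myofibroblasts than in pericytes in both libraries. Cspg4 and Notch3 were higher in pericytes. The part of pericyte-like cells in the myofibroblast values was not tested.

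In the pooled fibroblasts, Slc7a10 was higher and Slc7a1 lower in HFD, while Slc38a2, Slc3a2, Slc7a2 and Slc1a5 stayed within 1.5-fold. Levels are given as CPM, the counts of a gene scaled to a total of 1000000 over all genes, summed over the cells of a class. Of the 10 genes, 6 had enough counts for a ratio, and of these 1 was called higher and 1 lower by size. Over all 13422 genes tested in the same cells, 5.45% were called higher and 4.75% lower, 10.2% in either direction, and 1 call in each direction among 6 genes is too few to set apart from these shares. The median log2 ratio of the 6 genes was 0.0037, beside 0.025 over all genes tested.

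Slc7a10 (ENSMUSG00000030495) was at 123 CPM in HFD (interval 117 to 130) and 67.5 CPM in NC (63.6 to 71.6), and the intervals did not overlap. The HFD over NC ratio was 1.83 (1.69 to 1.98). It was the gene of the 6 with the highest ratio. The makeup of the pool also differed: Gas6 fibroblasts, where the level was lower, made up 18.0% of kept HFD cells and 24.6% of kept NC cells, and Asc1 fibroblasts 46.8% and 44.7%. Giving each fibroblast class the same weight changed the log2 ratio from 0.87 to 0.77. Without the 10 cells richest in Slc7a10 in each library it was 0.88.

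Slc7a1, which encodes the cationic amino acid transporter CAT1, the main carrier of arginine and lysine in many cells, was at 8.69 CPM in HFD (7.09 to 10.5) and 14.8 CPM in NC (13.0 to 16.8). Its ratio was 0.585 (0.460 to 0.739), the lowest of the 6. Slc3a2, the shared heavy chain, was at 173 CPM in HFD (165 to 181) and 207 CPM in NC (200 to 214), a ratio of 0.836 (0.791 to 0.884) that lay within the size rule with an interval below 1. A count was seen in 34% of the cells in HFD and 37.6% in NC, and in 18.8% and 21.9% after each cell was thinned to 2000 counts. The pooled fibroblasts of HFD held more transcripts of the light chain Asc-1 and fewer of the heavy chain, in CPM, than those of NC.

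Slc38a2 was at 352 CPM in HFD (341 to 362) and 326 CPM in NC (317 to 334), a ratio of 1.08 (1.04 to 1.12). Slc7a2, which encodes the cationic transporter CAT2, was at 15.0 CPM in HFD (12.9 to 17.4) and 11.6 CPM in NC (9.97 to 13.3), a ratio of 1.30 (1.05 to 1.60). Slc1a5 was at 83.1 CPM (78.0 to 88.4) and 89.3 CPM (84.8 to 94), a ratio of 0.931 (0.858 to 1.01) whose interval held 1. These 3 genes lay within the size rule, and the 2 cationic transporters, CAT1 and CAT2, lay on opposite sides of 1.

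The other members were near the limit of detection in the pooled fibroblasts. Slc7a5 had 73 counts in HFD and 139 in NC, just under the minimum for a ratio. Slc38a4 had 135 and 62 counts, and Slc38a1 had 7 and 22. Slc7a11 had no count in 5493 HFD cells, which allows a share of up to 0.0546% of cells with a count when 3 cells are taken as the limit and up to 0.0671% by the exact interval, and 15 counts in 6 of 7890 NC cells (0.076%, 0.0279 to 0.165). The cystine transporter xCT and the large neutral transporter LAT1, both partners of the CD98 heavy chain, had few counts in these fibroblasts.

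**Figure D1:**
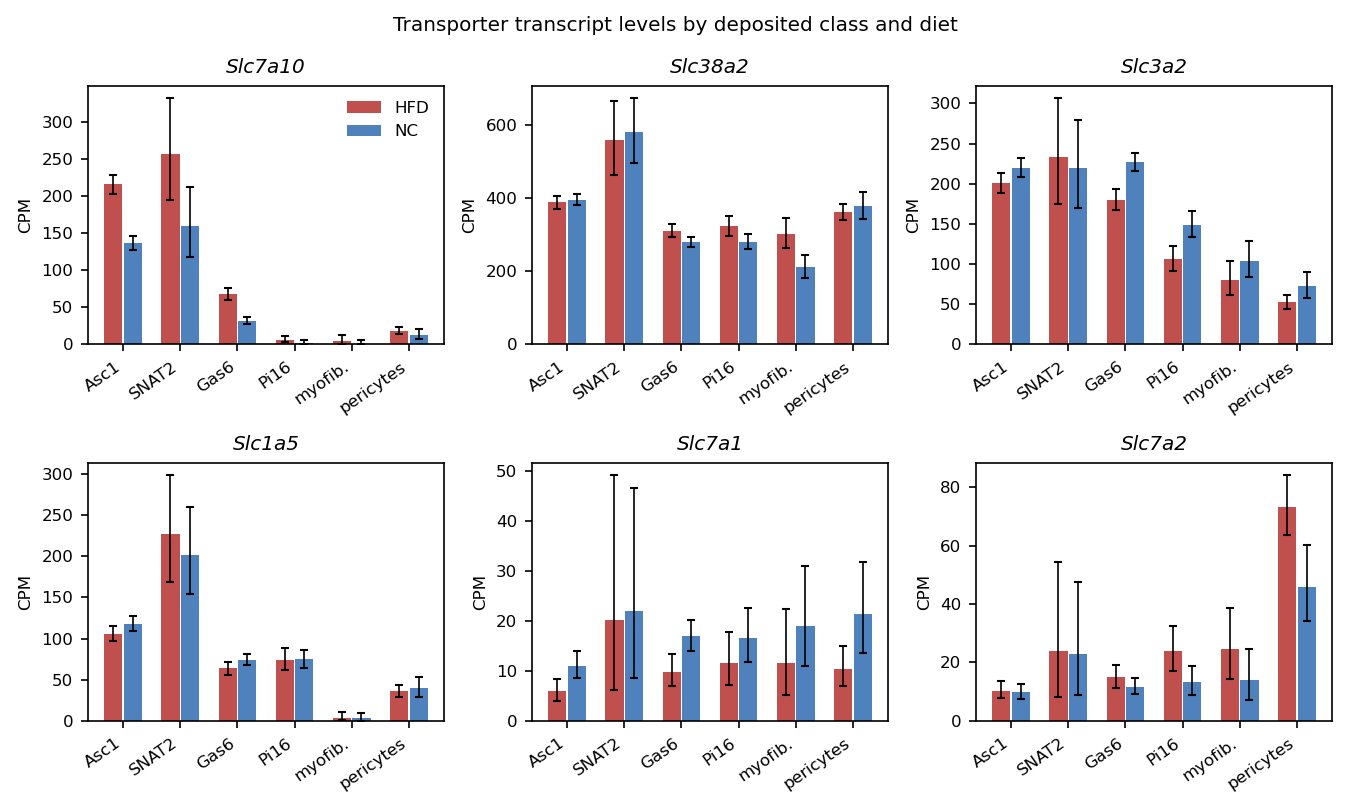
Level of 6 transporter genes (y axis, CPM) in each deposited class (x axis) for the HFD library (red) and the NC library (blue); bars are levels from summed counts and error bars are 95% counting intervals, with 1 library per bar. The Slc7a10 bars are tallest in the Asc1 and SNAT2 classes and near 0 in Pi16 fibroblasts and myofibroblasts, and the Slc7a2 bars are tallest in pericytes.

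Asc-1 transcripts were concentrated in the class that bears its name. In HFD, Slc7a10 was at 257 CPM in SNAT2 fibroblasts, 216 CPM in Asc1 fibroblasts, 67.8 CPM in Gas6 fibroblasts, 18.2 CPM in pericytes, 6.03 CPM in Pi16 fibroblasts and 4.505 CPM in myofibroblasts. In NC the levels were 160, 137, 31.9, 12.5, 2.43 and 1.19 CPM in the same order of classes. The intervals of SNAT2 and Asc1 fibroblasts overlapped in both libraries, as did those of Pi16 fibroblasts and myofibroblasts, and all other neighbours in that order were separated. Over the other fibroblasts together, the Asc1 class with its SNAT2 subset was at 4.95 times the level in HFD (4.35 to 5.65) and 6.18 times in NC (5.34 to 7.19). This ratio ranked 5 from the top among 11173 genes in HFD and 5 from the top among 11915 in NC, and it is a description, since the classes were made from these same cells. Of the 6 members tested in that contrast, 2 were called higher in each library, Slc7a10 and Slc1a5, where 12.1% of all genes were called higher in HFD and 13.6% in NC. Slc7a1 and Slc7a2 were called lower in HFD, at ratios of 0.625 and 0.595, and no member in NC, where 9.91% and 9.27% of all genes were.

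Not every cell of the Asc1 class had an Asc-1 count. A count of Slc7a10 was seen in 37.3% of Asc1 fibroblasts in HFD (35.5 to 39.1) and 24.3% in NC (22.9 to 25.7), at median depths of 8747 and 6631 counts per cell. After each cell was thinned to 2000 counts, leaving out 1 HFD and 4 NC cells that were shallower, the shares were 22.7% (21.2 to 24.3) and 15.1% (13.9 to 16.3), and the HFD share was still the higher. Pi16 fibroblasts, whose cells were deeper than those of the Asc1 class in both libraries (medians of 10302 and 7487 counts), showed one in 1.13% of cells in HFD and 1.15% in NC. Myofibroblasts had one in 0.784% and 0.3%. The share in Gas6 fibroblasts was 22.6% and 11.2%, or 9.50% and 4.30% after thinning, far above that of Pi16 fibroblasts at 0.503% and 0.328% after thinning. Pericytes had a count in 6.88% and 4.80% of cells, and 1.85% and 2% after thinning.

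**Figure D2:**
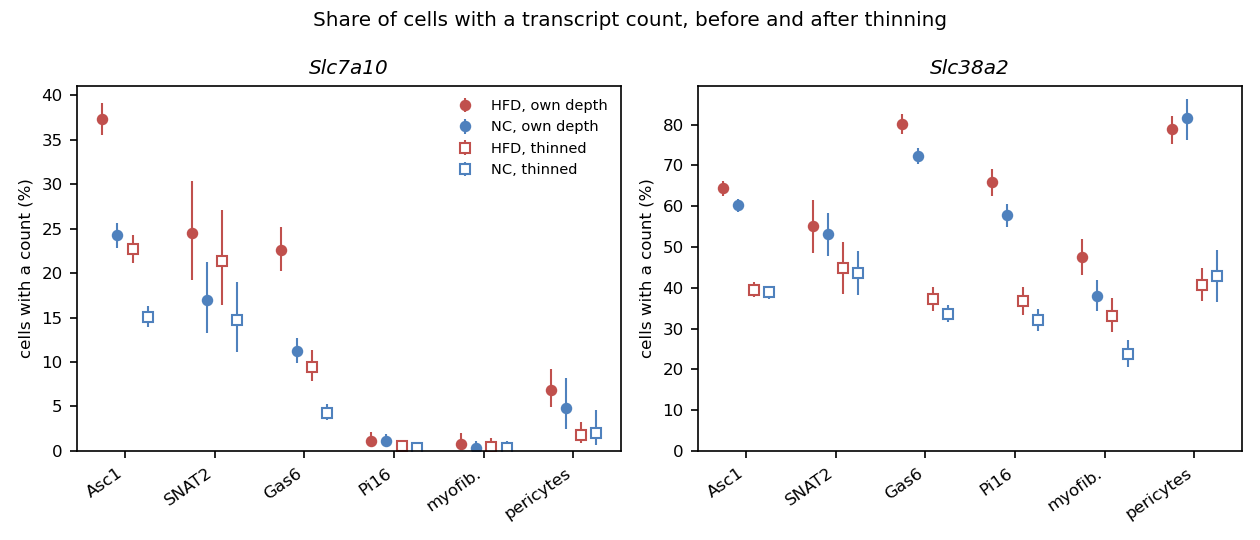
Percent of cells with a count of Slc7a10 (left) or Slc38a2 (right) in each deposited class for HFD (red) and NC (blue); filled circles are cells at their own depth, open squares are cells thinned to 2000 counts, and error bars are exact 95% binomial intervals. The Slc7a10 share in Asc1 fibroblasts was 22.7% in HFD and 15.1% in NC after thinning, while the Slc38a2 shares there were 39.5% and 38.9%.

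Within classes, Slc7a10 was higher in HFD in each of the 4 classes with enough counts for a ratio. The ratio was 1.57 in Asc1 fibroblasts (1.44 to 1.72), 1.60 in SNAT2 fibroblasts (1.07 to 2.41), 2.12 in Gas6 fibroblasts (1.77 to 2.55) and 1.46 in pericytes (0.793 to 2.88). Of these, 3 passed the size rule, and the pericyte interval held 1. The share of all genes called higher was 4.94%, 7.52%, 6.08% and 11.4% in that order. With the variance factor of Slc7a10 itself in place of that of the library, the interval in SNAT2 fibroblasts held 1 (0.983 to 2.61), and those in Asc1 fibroblasts (1.40 to 1.77) and Gas6 fibroblasts (1.67 to 2.70) stayed above it. Under a stricter filter on genes per cell and mitochondrial share, which left 18 HFD and 23 NC cells of the SNAT2 class, its value was 1.26, under the size rule. The pericyte value rests on few cells: 12 of 250 NC pericytes had a count, and the 10 richest held 96.4% of the NC counts.

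All 6 other markers of the alveolar fibroblast also had ratios above 1 in Asc1 fibroblasts. There Npnt, Itga8, Mfap4, Ces1d, Inmt and Tcf21 summed to 14666 CPM in HFD and 10515 CPM in NC, and none was at 0. Mfap4, a microfibril-associated glycoprotein of the matrix, was at 3593 and 1507 CPM, a ratio of 2.38 (2.33 to 2.44), and it was the 1 of 6 called higher by size. The others had ratios between 1.03 (Itga8) and 1.31 (Inmt). The part of such markers in the Slc7a10 value was not tested.

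The heavy chain partner of Asc-1 was on the other side of 1 in most classes. Slc3a2 in HFD and NC was at 200 and 220 CPM in Asc1 fibroblasts, 234 and 220 CPM in SNAT2 fibroblasts, 180 and 227 CPM in Gas6 fibroblasts and 106 and 149 CPM in Pi16 fibroblasts. It was at 80.8 and 104 CPM in myofibroblasts and 52.4 and 73.0 CPM in pericytes. Its ratio was below 1 in 5 of 6 classes, with an interval below 1 in 4 of them: 0.913 in Asc1 (0.841 to 0.990), 0.790 in Gas6 (0.722 to 0.864), 0.709 in Pi16 (0.590 to 0.849) and 0.718 in pericytes (0.543 to 0.955). No class passed the size rule for this gene. Class intervals between the diets were recomputed with a gene's own variance factor for Slc7a10 and Slc38a2 only, and not for Slc3a2. Pericytes held the heavy chain at 0.303 times the level of the pooled fibroblasts in HFD (0.254 to 0.359) and 0.353 times in NC (0.280 to 0.440). In that contrast 3 of 6 members were called lower in each library (Slc7a10, Slc3a2 and Slc1a5), where 29.1% and 34.7% of all genes were.

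Within the Asc1 class, cells with and without a count of the light chain were also set side by side after thinning to 2000 counts. Slc3a2 was seen in 23.5% of the 646 HFD cells with Slc7a10 (20.3 to 27.0) and in 19.7% of the 2200 without it (18.0 to 21.4). In NC the shares were 25.7% of 548 (22.1 to 29.6) and 22.1% of 3088 (20.6 to 23.6). Slc1a5 was seen in 15.5% against 11.4% of HFD cells and in 16.8% against 12.8% of NC cells, and Slc38a2 in 40.4% against 39.3% and in 37.4% against 39.2%. The intervals overlapped for Slc3a2 and Slc38a2 in both libraries. For Slc1a5 the intervals were apart in HFD, by a narrow gap (12.776 to 18.5 against 10.1 to 12.764), and overlapped in NC (13.8 to 20.2 against 11.6 to 14.0). Thinning is random and was not repeated, so whether so narrow a gap holds in another draw was not tested. The Slc1a5 share was the higher one in cells with Slc7a10 in both libraries, and the difference itself was not tested.

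Counted by class, 1 of 6 members was called higher and 1 lower in Asc1 and in Gas6 fibroblasts. Among all genes 4.94% were called higher and 5.62% lower in Asc1 fibroblasts, and 6.08% and 5.91% in Gas6 fibroblasts. In SNAT2 fibroblasts 1 of 4 was called higher and 0 lower, with 7.52% and 8.35% of all genes, and in Pi16 fibroblasts 1 of 5 and 0, with 5.7% and 5.88%. Of the 2 members measured in myofibroblasts, Slc38a2 and Slc3a2, none passed, with 7.62% and 7.94% of all genes called higher and lower. In pericytes 1 of 6 was called higher and 1 lower, with 11.4% and 6.77%. All of these calls were of Slc7a10, Slc7a1 or Slc7a2.

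**Figure D3:**
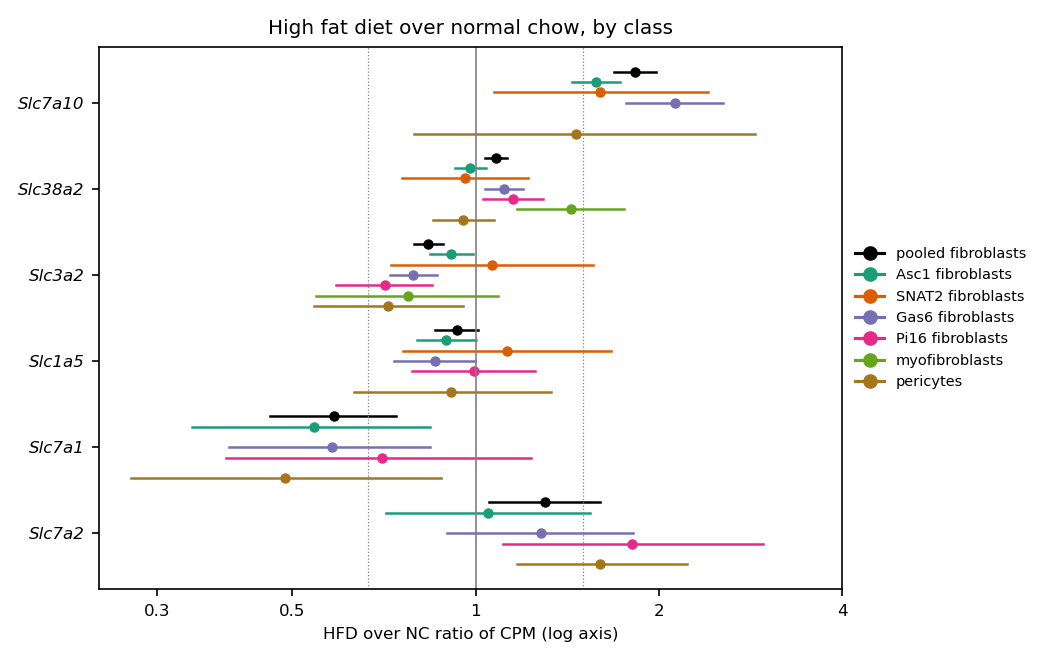
HFD over NC ratio of the level (x axis, log scale) of 6 transporter genes in the pooled fibroblasts and in each class with enough counts; points are ratios, lines are 95% counting intervals, and dotted lines mark 1.5-fold. All Slc7a10 points lie above 1 and all Slc7a1 points below it, and the Slc38a2 points run from 0.955 in pericytes to 1.43 in myofibroblasts.

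SNAT2 transcripts were spread over all classes. In HFD, Slc38a2 (ENSMUSG00000022462) was at 559 CPM in SNAT2 fibroblasts, 389 CPM in Asc1 fibroblasts, 362 CPM in pericytes, 324 CPM in Pi16 fibroblasts, 312 CPM in Gas6 fibroblasts and 304 CPM in myofibroblasts. In NC the levels were 581, 397, 379, 281, 280 and 212 CPM in the same order of classes. Beyond the first place, neighbours in that order had overlapping intervals in HFD, and in NC the pericytes stood apart from Pi16 fibroblasts and the Gas6 fibroblasts from myofibroblasts. A count was seen in 64.4% of Asc1 fibroblasts in HFD and 60.2% in NC, and in 39.5% and 38.9% after thinning, and the thinned intervals overlapped (37.7 to 41.4 and 37.3 to 40.5).

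Between the diets, Slc38a2 differed by less than 1.5-fold in every class. The ratio was 0.981 in Asc1 fibroblasts (0.924 to 1.04), 0.962 in SNAT2 fibroblasts (0.758 to 1.22) and 0.955 in pericytes (0.851 to 1.07), with intervals that held 1. It was 1.11 in Gas6 fibroblasts (1.035 to 1.195), 1.15 in Pi16 fibroblasts (1.03 to 1.29) and 1.43 in myofibroblasts (1.17 to 1.75), where it passed the size rule, at 1.53, under a stricter filter on genes per cell and mitochondrial share. With the gene's own variance factor the intervals in Gas6 (0.992 to 1.246) and Pi16 fibroblasts (0.986 to 1.35) held 1, and that in myofibroblasts (1.13 to 1.82) did not. In myofibroblasts the 6 immune markers summed to 151 CPM in HFD and 48.7 CPM in NC, with Lyz2 at 76.6 and 0.594 CPM and Ptprc and Cd3e at 0, and their part in this ratio was not tested. Whether the classes differ from each other in this ratio was not tested.

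Slc38a2 was highest in the class named for SNAT2, by a margin that many other genes exceeded. Over the other Asc1 fibroblasts its Slc38a2 level was 1.44 times as high in HFD (1.19 to 1.72) and 1.46 times in NC (1.246 to 1.71), under the size rule in both, and this put the gene at place 2801 of 8664 genes in HFD and 2686 of 9227 in NC. In that contrast 29.6% of all genes in HFD and 27.5% in NC were called higher, and 29.1% and 27.8% lower. Without the 10 richest cells of each class the ratio was 1.12 in HFD (0.894 to 1.39) and 1.23 in NC (1.03 to 1.47), where 10 cells are a larger share of the smaller class. The cells of this class were shallow: 69.8% of its 810 HFD cells and 63.7% of its 989 NC cells were left out by the cell filter, and the 245 and 359 kept ones had medians of 4009 and 3037 counts and of 6.27% and 6.44% mitochondrial counts, against 3.48% and 3.40% in Asc1 fibroblasts. Among cells of 2000 to 5000 counts the Slc38a2 ratio was 1.58 in HFD and 1.28 in NC, and among cells of 5 to 10% mitochondrial counts 1.56 and 1.49. A Slc38a2 count was seen in 55.1% of HFD and 53.2% of NC SNAT2 fibroblasts, against 64.4% and 60.2% of Asc1 fibroblasts. After thinning the SNAT2 shares were 44.9% (38.5 to 51.3) and 43.7% (38.3 to 49.1). These intervals overlapped those of Asc1 fibroblasts (37.7 to 41.4 and 37.3 to 40.5). SNAT2 fibroblasts also held more adventitial, myofibroblast and pericyte markers than Asc1 fibroblasts. In HFD and NC, 6 adventitial markers, Pi16 and Dcn among them, summed to 751 and 1066 CPM, against 172 and 217 CPM. For 6 myofibroblast markers the sums were 1755 and 1697 CPM, against 852 and 853 CPM. For 5 pericyte markers they were 135 and 214 CPM, against 17.3 and 30.4 CPM. The 6 alveolar markers summed to 10639 and 7119 CPM, against 14666 and 10515 CPM. The part of cell quality and of these markers in the class itself was not tested.

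Among the other members, Slc1a5 was the 1 called higher in SNAT2 fibroblasts with an interval above 1 in both libraries. It was at 227 CPM there in HFD and 202 CPM in NC, against 106 and 118 CPM in the other Asc1 fibroblasts, ratios of 2.15 (1.58 to 2.87) and 1.71 (1.29 to 2.23). Of the members tested in this contrast, 2 of 5 were called higher in HFD and 3 of 6 in NC, where 29.6% and 27.5% of all genes were. These calls are too few to set apart from those shares. The other members called had larger ratios from fewer counts, with intervals that held 1: Slc7a2 at 2.304 in HFD (0.754 to 5.57) and 2.31 in NC (0.876 to 5.11), and Slc7a1 at 2.002 in NC (0.746 to 4.46). The Slc1a5 ratio was 1.40 in HFD without the cell filter and 1.44 (0.967 to 2.07) without the 10 richest cells, and in NC 1.48 and 1.246 (0.883 to 1.71). Slc7a10 was at 1.19 times the level of the other Asc1 fibroblasts in HFD (0.896 to 1.55) and 1.17 times in NC (0.852 to 1.56), and without the 10 richest cells at 0.763 and 0.767 times. A Slc7a10 count was seen in 24.5% of its HFD and 17% of its NC cells, and in 21.4% and 14.7% after thinning.

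ASCT2 and the cationic transporters divided the classes in other ways. Beside SNAT2 and Asc1 fibroblasts, Slc1a5 in HFD and NC was at 74.3 and 74.8 CPM in Pi16 fibroblasts, 63.9 and 74.4 CPM in Gas6 fibroblasts, 35.9 and 39.5 CPM in pericytes and 3.66 and 2.97 CPM in myofibroblasts. Myofibroblasts had the lowest level, with a count in 0.98% of cells in HFD and 1.35% in NC, where Asc1 fibroblasts had one in 23.1% and 23.7%. After thinning the shares were 0.392% and 0.450% in myofibroblasts and 12.3% and 13.4% in Asc1 fibroblasts. Between the diets the ratio of Slc1a5 ran from 0.858 in Gas6 fibroblasts (0.735 to 1) to 1.13 in SNAT2 fibroblasts (0.760 to 1.67) over 5 classes, none past the size rule.

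CAT2 transcripts were highest in pericytes, apart from all other classes in HFD and overlapping SNAT2 fibroblasts (9.04 to 47.7 CPM) in NC. Slc7a2 was at 73.3 CPM in HFD pericytes (63.5 to 84.2) and 45.8 CPM in NC pericytes (34.1 to 60.3), 4.89 times (3.97 to 6.01) and 3.97 times (2.85 to 5.43) the level of the pooled fibroblasts. It was the 1 member of 6 called higher there, beside 14.8% of all genes in HFD and 12.9% in NC. In the fibroblast classes its level lay between 10.4 and 24.5 CPM in HFD and between 9.90 and 22.9 CPM in NC. The HFD over NC ratio was 1.60 in pericytes (1.17 to 2.22) and 1.81 in Pi16 fibroblasts (1.11 to 2.97), both past the size rule, and 1.05 in Asc1 (0.714 to 1.54) and 1.28 in Gas6 fibroblasts (0.898 to 1.81), with intervals that held 1. In NC, 250 pericytes were kept against 596 in HFD, 3.07% and 9.79% of kept cells, so the NC pericyte values rest on fewer cells.

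CAT1 transcripts were lower in HFD in all 4 classes with enough counts. Slc7a1 in HFD and NC was at 5.97 and 11.0 CPM in Asc1 fibroblasts, 9.80 and 16.9 CPM in Gas6 fibroblasts, 11.6 and 16.5 CPM in Pi16 fibroblasts and 10.4 and 21.3 CPM in pericytes. The ratios were 0.542 (0.342 to 0.840), 0.581 (0.393 to 0.841), 0.703 (0.389 to 1.23) and 0.486 (0.271 to 0.878) in that order. All but the Pi16 value passed the size rule. The counts were small: 44 of 2847 Asc1 fibroblasts had a Slc7a1 count in HFD and 99 of 3640 in NC. After thinning the shares were 0.632% (0.375 to 0.998) and 1.16% (0.834 to 1.56), with overlapping intervals. The thinned intervals also overlapped in Gas6 fibroblasts, Pi16 fibroblasts and pericytes. They were apart in the pooled fibroblasts (0.899 to 1.49 in HFD and 1.63 to 2.25 in NC). In pericytes the 10 richest cells held 55.5% of the HFD and 61.7% of the NC counts. Slc7a1 was also at 11.5 and 19.02 CPM in myofibroblasts and 20.3 and 22.0 CPM in SNAT2 fibroblasts, where the counts were too few for a ratio.

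The sparse members were at low levels in every class. Slc38a1 was highest in pericytes, with 152 counts in 42 of 596 HFD cells (11.5 CPM, 7.83 to 16.3) and 19 counts in 7 of 250 NC cells (4.31 CPM, 1.35 to 10.2), against 7 and 22 counts in all fibroblasts together. In NC its interval overlapped that of myofibroblasts, with 5 counts (0.0712 to 7.11 CPM). Slc38a4 was highest in myofibroblasts, at 11.5 CPM in HFD (5.12 to 22.4) and 6.54 CPM in NC (2.27 to 14.7), where 12 of 510 and 9 of 667 cells had a count. These intervals overlapped those of Pi16 fibroblasts in both libraries (0.785 to 6.31 and 0.177 to 3.38 CPM) and those of SNAT2 fibroblasts, which had no count in 245 and 359 cells (up to 16.5 and 12.5 CPM). By number, 54 of its 135 HFD fibroblast counts were in Asc1 fibroblasts and 41 in myofibroblasts. Slc7a5 had counts in every class but HFD myofibroblasts and was at or below 5.09 CPM in each class and library. In the remaining classes Slc38a1 and Slc38a4 were at or below 2.60 CPM. The large neutral transporter and both rarer SNAT genes had too few counts in any class for a ratio between the diets.

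Genes whose levels ran most like those of Slc7a10 over the 12 class-by-library profiles were Chst3, a chondroitin sulfotransferase (r = 0.987), the receptor tyrosine kinase Epha1 (0.985), Phactr1 (0.976), Limd1 (0.975) and the unconventional myosin Myo10 (0.974). Chst3 was at 95.4 CPM in HFD and 69.6 CPM in NC Asc1 fibroblasts and at 6.50 and 1.80 CPM in Pi16 fibroblasts. For Slc38a2 they were Apbb3 (0.971), Dus4l (0.95), Cops3, a COP9 signalosome subunit (0.949), Xndc1 (0.937) and Foxn2, a forkhead factor (0.935). All 5 of these were highest in SNAT2 fibroblasts, as Slc38a2 was. They were picked for running like Slc38a2 over the classes, so the shared highest class follows from the choice and is no separate result. Apbb3, Dus4l and Xndc1 were at lower levels there than Cops3 and Foxn2 in both libraries. Values are Pearson correlations of log2(CPM + 1) among 12016 genes, and the profiles share 2 libraries and differ in depth, so they are a description only. Between members, Slc7a10 and Slc38a2 had r = 0.79, Slc7a10 and Slc3a2 0.66, and Slc3a2 and Slc7a2 -0.76.

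Around these members, genes of amino acid transport and use were mostly within 1.5-fold in the pooled fibroblasts, and the lists for glutamine and glutathione had the lowest medians. Of 27 genes in the list of other transporters, 17 had enough counts: 1 was called higher and 2 lower, with a median log2 ratio of 0.14. Over all genes tested in these cells, 5.45% were called higher and 4.75% lower. Slc6a6, the taurine transporter, was at 253 CPM in HFD and 170 CPM in NC (ratio 1.49, 1.42 to 1.57), and Slc1a3, a glutamate transporter, at 145 and 112 CPM (1.30, 1.21 to 1.39). Slc7a6, a CD98 light chain of the y+L system, was at 12.6 and 20.3 CPM (0.620, 0.508 to 0.754), and Slc43a1, a carrier of large neutral amino acids, at 4.22 and 7.58 CPM (0.557, 0.393 to 0.778). The 1 called higher was Slc38a7, named after its value was seen, at 6.02 and 3.81 CPM (1.58, 1.11 to 2.25).

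Of the ATF4 and amino acid response list, 16 of 20 genes had enough counts, 0 were called higher and 3 lower, with a median log2 ratio of -0.035. In the same pooled fibroblasts, 5.45% of all genes tested were called higher and 4.75% lower. Sesn2, a leucine sensor and stress gene, was at 4.71 CPM in HFD and 9.66 CPM in NC (0.487, 0.353 to 0.665), and Ddit4, an mTORC1 inhibitor, at 0.779 and 2.49 CPM (0.313, 0.135 to 0.649). The third was Aldh18a1 of proline synthesis, named after its value was seen (0.630, 0.433 to 0.902). Atf3 was at 2477 and 1981 CPM (1.251, 1.23 to 1.27), and Vldlr at 101 and 73.5 CPM (1.38, 1.27 to 1.49). None of the 18 aminoacyl-tRNA synthetases measured passed the size rule, with a median of -0.081: Eprs (0.865), Hars (0.811), Iars (0.775) and, named after its value was seen, Cars (0.746) had intervals below 1 and Sars (1.23) above it. Likewise none of 23 mTORC1 amino acid sensing genes passed, with a median of 0.0031. Among them the Rag GTPase Rraga (1.205) and the Ragulator subunits Lamtor2 (1.14) and Lamtor4 (1.12) had intervals above 1, and Rheb, the GTPase that activates mTORC1 (0.833), had one below it, as did Lamtor3 (0.882) and Flcn (0.742), named after their values were seen.

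All 12 glutamine and glutamate metabolism genes were measured, 0 were called higher and 2 lower, where 4.75% of all genes were called lower, and 9 of 12 had ratios below 1, with a median log2 ratio of -0.29. Glul, glutamine synthetase, was at 81.7 CPM in HFD and 135 CPM in NC (0.604, 0.560 to 0.652), and Gfpt2, which uses glutamine to make hexosamine phosphate, at 77.8 and 139 CPM (0.560, 0.518 to 0.604). Ctps, CTP synthase, was at 15.9 and 22.2 CPM (0.717, 0.598 to 0.857). The list's median was below that of all genes in fibroblasts of the Asc1 (-0.38), Gas6 (-0.36) and Pi16 class (-0.27), in myofibroblasts (-0.22) and pericytes (-0.26), and in SNAT2 fibroblasts (-0.70), where 4 genes were measured. Medians over all genes in those classes lay between -0.0062 and 0.082.

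The glutathione and cystine list also holds antioxidant genes such as Hmox1, Txnrd1 and Srxn1. It had 11 genes measured, 0 called higher and 2 lower, 9 of 11 below 1 and a median of -0.34. Of all genes tested in the pooled fibroblasts, 5.45% were called higher and 4.75% lower. Gclc, the catalytic subunit that starts glutathione synthesis, was at 14.5 CPM in HFD and 24.3 CPM in NC (0.599, 0.498 to 0.717), Srxn1, sulfiredoxin, at 19.02 and 27.7 CPM (0.687, 0.583 to 0.807), Hmox1, heme oxygenase, at 23.0 and 33.1 CPM (0.694, 0.598 to 0.804), and Txnrd1, thioredoxin reductase, at 82.7 and 109 CPM (0.758, 0.701 to 0.820). Ggt5, the other gene called lower, was named after its value was seen and had an interval that held 1 (0.642, 0.354 to 1.13). So did the glutathione genes Gclm (0.949, 0.830 to 1.08), Gss (1.04, 0.778 to 1.37) and Gsr (0.918, 0.731 to 1.15), also named after their values were seen. Of the serine, glycine and one-carbon list, which covers the amino acids that Asc-1 carries, 12 of 14 were measured with a median of -0.010: Amt of the glycine cleavage system was called higher (4.27 and 2.49 CPM, 1.72, 1.12 to 2.66) and Mthfd1l lower (1.80 and 3.17 CPM, 0.567, 0.326 to 0.954). Of the arginine list, 5 of 12 were measured, none passed the size rule, and the median was -0.11. Odc1, ornithine decarboxylase, was at 540 and 641 CPM (0.843, 0.817 to 0.869), with Azin1 at 0.894 and Oaz1 at 0.928.

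**Figure D4:**
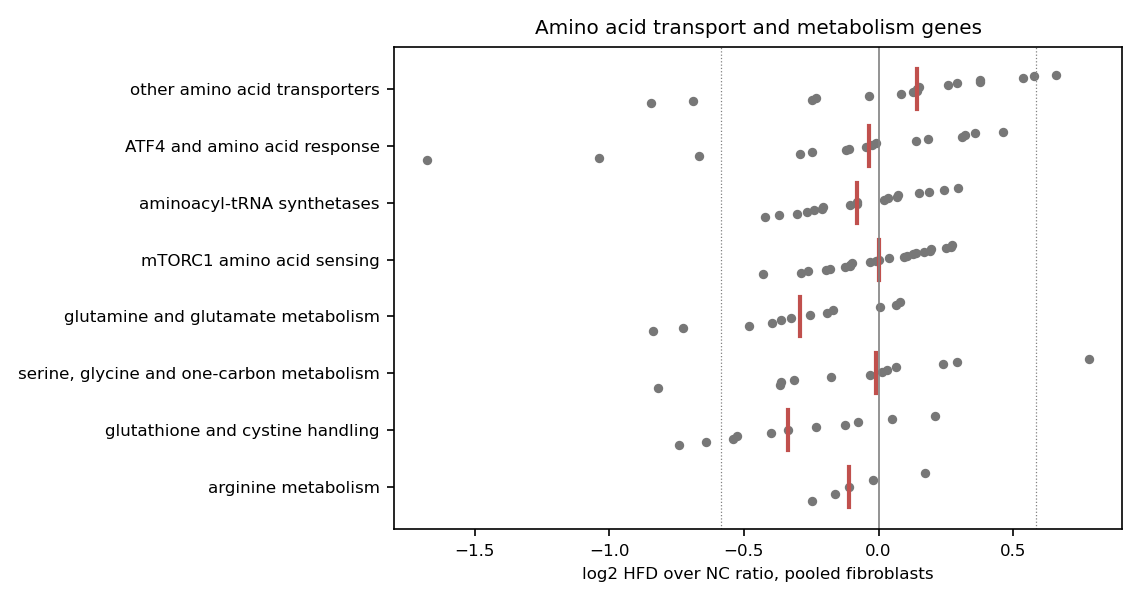
Log2 HFD over NC ratio in the pooled fibroblasts (x axis) of each measured gene (grey points) of 8 gene lists (rows); red bars are list medians and dotted lines mark 1.5-fold. The medians of the glutamine and glutathione lists lie at -0.29 and -0.34 and that of the list of other transporters at 0.14, beside 0.025 over all genes tested.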

How the data were processed

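Each library gave 1 deposited table with a row per cell. The gene values the authors deposited were identified from their range and sums as log2(CPM + 1) of each cell. Per the file headers, the deposited tables also hold each cell's total, an estimated count (a fraction remained in 7.24% of HFD and in 5.59% of NC totals), and mitochondrial shares in percent. STAR and mm39 are named in the submitters' processing notes, and versions, annotation and molecule counting are not given in the sources used here. The log2 scale was undone to recover counts, of which 98.8% and 98.96% of the nonzero ones came out whole within 0.01, and all were rounded. The variance factor of a library was the median of a per-gene value over genes seen in 0.1 to 1% of cells. That value was the sum of squared counts over the sum of counts. The intervals were run on simulated Poisson counts drawn at rates already divided by this factor. That simulation had no clumping, so it could not show how well the factor suits a given gene. Classes are the deposited annotation, and no doublet caller was run. Identifiers were matched to symbols for 20180 of 21014 genes. Ddit3 was left out because 2 identifiers share its symbol, and 8 listed genes were not matched. Named genes are all members, of each list up to 4 measured genes whose interval lies farthest from 1, and for Slc7a10 and Slc38a2 the 5 genes of highest correlation. Of the genes this rule names, 1 is not reported here. Members and lists were chosen with earlier results of these data known. Python 3.11.15, numpy 2.4.6, scipy 1.17.1 and pandas 2.3.3 were used. Alternatives covered the cell filter, scaling, weighting of classes and cells, the fold and the interval.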

Additional observations from a re-analysis of the deposited data

How the results depend on the processing

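Of 330 recomputed values, 298 were labelled the same, 32 moved and no called value changed sign. A ratio or share was the same where it lay within its main interval, and a list median where it lay within its spread. A count of calls was the same where it was equal or within 1.5-fold. Crossing the size rule was not part of this label. Rows with a gene's own variance factor kept the main ratio, so they could not move. The pooled log2 ratio of Slc7a10 ran from 0.70 (with pericytes added) to 0.98 and that of Slc7a1 from -0.91 to -0.69. Of the members, 2 were called higher in HFD with classes weighted equally, without the Asc1 class, with pericytes added or at the smaller fold tried, the added gene being Slc7a2, and 2 were called lower without a cell filter or with pericytes added, the added gene being Slc7a5. At a fold of 2, 0 were higher and 0 lower. The pooled log2 ratio of Slc38a2 was 0.18 with classes weighted equally and 0.19 without the Asc1 class. For SNAT2 over other Asc1 fibroblasts it was 0.16 in HFD and 0.30 in NC without the 10 richest cells. With the mean of per-cell CPM the log2 ratio of Slc7a10 in the Asc1 class over other fibroblasts was 2.76 in HFD and 3.04 in NC. The arginine median was -0.16 with pericytes added and -0.021 with genes of at least 20 effective counts. Thinned shares of Asc1 fibroblasts were 22.7% and 15.1% for Slc7a10 and 39.5% and 38.9% for Slc38a2, since thinning removes counts. The cause of the other moves was not tested. Without the 10 richest cells the Slc7a10 log2 ratio in pericytes was 4.36, from the few NC cells left. Alternatives on cell depth, mitochondrial share, a second annotation column, the SNAT2 subset and shared barcodes were chosen after seeing the data. Depth limits Slc38a1, Slc38a4, Slc7a5 and Slc7a11, for which no ratio between diets was given. No paired analysis was possible because each diet has 1 library.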
